A study of Mus musculus with 6 samples.

Results

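The genes described here carry proteins into the endoplasmic reticulum (ER), fold them there and remove those that fail to fold, together with the sensors that set the capacity of that system. They were taken as 36 named genes in 5 role groups, each represented by the probe set annotated to that gene alone and, where a gene had several, by the one with the highest mean over the 6 arrays. Of the 36, 35 had such a probe set, out of 22180 genes measured in the same way. The exception was Pdia4, a disulfide isomerase, whose probe set is also annotated to the microRNA gene Mir704. That shared probe set stood at 7.98, 8.28 and 8.16 in DX2 arrays 1, 2 and 3, against 8.53, 8.56 and 8.46 in control arrays 1, 2 and 3 (log2), and it was left out of every count.

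The spleens came from mice at 1 year of age, with 3 DX2 and 3 control mice and 1 Affymetrix array each. DX2 mice had the genotype CAG-rtTA; TRE DX2/+, in which the doxycycline-dependent activator rtTA under the broadly active CAG promoter drives AIMP2-DX2, a shortened splice form of AIMP2, a scaffold of the multi-tRNA synthetase complex. Control mice were littermates of genotype 0; TRE DX2 /+, which carry the responsive transgene without the activator, and both groups were fed pellets with doxycycline (6.25 mg/kg) from 8 weeks of age. Since the activator was present in the DX2 mice alone, its own effect and that of AIMP2-DX2 cannot be told apart. The probe set that covers Aimp2 is also annotated to Eif2ak1, so it gives no check of the labels. It read 6.42 in DX2 and 6.16 in control spleens on average (log2).

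In the ER, the translocon threads new chains through the membrane, chaperones of the HSP70 and HSP90 families and the lectins calnexin and calreticulin hold them while they fold, and disulfide isomerases form and reshuffle their bonds. Chains that do not fold are trimmed, drawn back through the membrane, tagged with ubiquitin and degraded. When unfolded chains build up, the membrane sensors PERK, IRE1 and ATF6 start the unfolded protein response, and IRE1 splices the messenger RNA of Xbp1, a transcription factor that raises many of these genes. In the spleen, antibody-secreting plasma cells carry an enlarged ER and depend on XBP1 for it.

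A promoter element that many ER chaperone genes share is the ER stress response element (ERSE), the letters CCAAT and CCACG with 9 bases of any kind between them, which is bound by ATF6 together with the CCAAT-binding factor NF-Y. RefSeq promoter windows (build GRCm38.p6, 250 bases before to 50 bases after the start site) were found for 29 of the 36 genes. No window was found for Atf6, Hyou1, Hspa13, Manf, Sec61a1, Ssr2 and Derl1. The element was present, on either strand, in 9 of the 29 ER genes (31.0%), against 29 of the 16990 measured genes with a window (0.171%) and 39 of all 32851 windows (0.119%). The rule that chose the ER genes did not use sequence, although ER chaperones are the genes in which the element was first described. The matches are shown because they mark the ER genes that share this element. Each is written 5′ to 3′ in the direction of the element, with the fixed letters in capitals.
Hspa5 (chr2:34772025-34772043): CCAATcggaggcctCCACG
Calr (chr8:84847075-84847093): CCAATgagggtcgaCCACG
Derl3 (chr10:75893242-75893260): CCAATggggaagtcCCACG
Hsp90b1 (chr10:86705638-86705656): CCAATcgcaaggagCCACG
Hsp90b1 (chr10:86705533-86705551): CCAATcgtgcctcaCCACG
Canx (chr11:50325800-50325818): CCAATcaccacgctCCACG
Pdia6 (chr12:17266491-17266509): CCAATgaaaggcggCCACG
Dnajc3 (chr14:118937827-118937845): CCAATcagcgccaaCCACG
Creld2 (chr15:88819520-88819538): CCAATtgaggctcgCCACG
Syvn1 (chr19:6046532-6046550): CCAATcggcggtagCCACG

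Hsp90b1 held 2 copies in opposite directions. In Calr, Derl3, Creld2 and the second Hsp90b1 copy the element runs against the direction of the gene. The related ERSE-II, ATTGG and CCACG with 1 base of any kind between them, was present in 2 of the 29 ER genes (6.90%) and in 9 of the 16990 measured genes (0.0530%), and it overlaps no ERSE match among the ER genes.
Herpud1 (chr8:94386377-94386387): ATTGGgCCACG
Dnajb11 (chr16:22857852-22857862): ATTGGcCCACG

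The Herpud1 match began 52 bases before the start site and the Dnajb11 match 8 bases after it. The octamer TGACGTGG, bound by XBP1 and ATF6 and again searched on both strands, was found in Txndc5 alone among the 29 (3.45%, against 0.865% of the measured genes), in 1 of its 3 windows, and the amino acid response element (TGATG and AAT with 1 base between them) in none of them (0.930% of the measured genes). The 5 bases CCACG alone were present in 25 of the 29 ER genes (86.2%) and in 41.0% of the measured genes. A match is a description of the letters, and its absence says only that these letters are not in this window.

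Windows of 4 ER genes are printed whole, so that the position and direction of the element can be compared between chaperone genes that carry it and the sensor gene Eif2ak3, which had the lowest difference among the ER genes. They lie on the plus strand at chr2:34771840-34772139 (Hspa5), the minus strand at chr10:86705395-86705694 (Hsp90b1), the plus strand at chr15:88819396-88819695 (Creld2) and the plus strand at chr6:70844265-70844564 (Eif2ak3). Capitals mark the fixed letters of ERSE as they stand on the strand of the gene.
Hspa5: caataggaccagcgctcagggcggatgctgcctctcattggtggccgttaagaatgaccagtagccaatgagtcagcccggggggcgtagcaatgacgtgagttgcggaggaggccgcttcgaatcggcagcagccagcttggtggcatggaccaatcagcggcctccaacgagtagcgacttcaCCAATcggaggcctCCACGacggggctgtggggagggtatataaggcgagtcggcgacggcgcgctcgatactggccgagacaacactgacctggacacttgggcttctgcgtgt
Hsp90b1: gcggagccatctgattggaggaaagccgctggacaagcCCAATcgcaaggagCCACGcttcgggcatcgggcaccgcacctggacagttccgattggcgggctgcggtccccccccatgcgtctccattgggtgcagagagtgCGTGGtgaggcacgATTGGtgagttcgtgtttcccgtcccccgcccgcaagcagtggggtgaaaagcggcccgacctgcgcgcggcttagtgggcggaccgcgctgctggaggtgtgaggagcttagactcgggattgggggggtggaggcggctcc
Creld2: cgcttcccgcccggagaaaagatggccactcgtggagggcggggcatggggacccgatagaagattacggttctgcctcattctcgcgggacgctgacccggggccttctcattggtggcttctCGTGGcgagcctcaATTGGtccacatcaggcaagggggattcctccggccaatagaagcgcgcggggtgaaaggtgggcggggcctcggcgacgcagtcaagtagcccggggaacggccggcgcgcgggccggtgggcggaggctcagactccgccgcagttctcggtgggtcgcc
Eif2ak3: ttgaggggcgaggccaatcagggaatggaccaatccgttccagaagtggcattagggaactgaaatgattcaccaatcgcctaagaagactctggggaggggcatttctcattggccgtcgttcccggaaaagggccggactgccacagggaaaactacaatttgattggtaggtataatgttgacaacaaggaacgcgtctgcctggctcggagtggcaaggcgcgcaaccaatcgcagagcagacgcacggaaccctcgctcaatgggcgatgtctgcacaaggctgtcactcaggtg

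The Hspa5 match began 65 bases before the start site, those of Hsp90b1 212 and 107 bases and that of Creld2 126 bases before it. The Eif2ak3 window held none of the motifs searched.

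The values are log2 expression values, and every difference is DX2 minus control. The groups were not matched for sex. By the RNAs of Xist and of the Y-linked Eif2s3y, control 1 and control 2 were female, and control 3 and the 3 DX2 spleens were male, so the median of all ER genes and of each role group is also given against control 3 alone. Of the marker lists, 12 of 12 measured B cell genes were lower in DX2 spleens, with a mean list level of 7.92 to 8.70 in DX2 and 9.67 to 10.0 in control arrays, and 13 of 13 proliferation genes were higher, at 7.99 to 8.74 in DX2 and 6.84 to 7.81 in control arrays. Erythroid genes were at 9.75 and 9.48 in DX2 1 and DX2 3 but 7.51 in DX2 2, against 6.38 to 8.23 in control arrays. Of the red pulp macrophage genes, 10 of 13 were higher and 3 lower, with a median of 0.46. Their mean level was 8.92 to 9.13 in DX2 and 8.43 to 8.65 in control arrays. Genes of the B cell (12), T cell (9), red pulp macrophage (13) and erythroid (10) lists had mean levels above the all-gene mean of 5.56 to 5.59 on every array. Acinar genes of the pancreas, a neighbouring organ rich in ER, were at 4.27 to 4.43 in DX2 and 4.24 to 4.38 in control arrays. DX2 1 stood apart in neutrophil genes (9.04, against 6.74 to 7.72 on the other 5 arrays) and megakaryocyte genes (9.39, against 7.20 to 7.86). Albumin (Alb), the main secreted protein of liver, stood at 8.71, 4.87 and 5.14 in DX2 1, 2 and 3, against 6.22, 5.92 and 10.6 in control 1, 2 and 3.

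ER folding genes stood higher in DX2 spleens by a small amount, and the sensors did not share that direction. Of the 35 ER genes, 26 were higher and 9 lower by mean (74.3% higher, against 51.6% of all genes), with a median difference of 0.19 against 0.0085 over all 22180 genes. None passed limma's test at an adjusted p of 0.05 over all genes (Benjamini-Hochberg, smallest adjusted p = 0.118), against 0.316% of all genes (0.0361% higher and 0.280% lower). At an unadjusted p under 0.05 there were 6 higher (17.1%, against 8.13% of all genes) and 1 lower (2.86%, against 7.82%). The 3 DX2 values lay above the 3 control values for 11 of the 35 (31.4%, against 10.7% of all genes) and below them for 2 (5.71%, against 11.2%). The ER genes had a median level of 8.62, against 5.45 over all genes, so the all-gene shares are not matched for level. With a filter on dim genes, 54.0% of the genes kept were higher, with a median of 0.026. The ER genes were chosen with earlier results of these data known, so these counts are a description. Set against the male control alone, 28 of 35 were higher and the median was 0.25. That control, control 3, was the lowest control array for 16 of the 35, against 7217 of all 22180 genes. With each array centred on its median, 31 of 35 were higher, as were 68.0% of all genes. Without control 3, which had the high Alb signal, the median of the ER genes was 0.16, and without DX2 1 it was 0.19. In whole spleens, fewer cells of a type and less RNA per cell cannot be told apart.

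**Figure D1:**
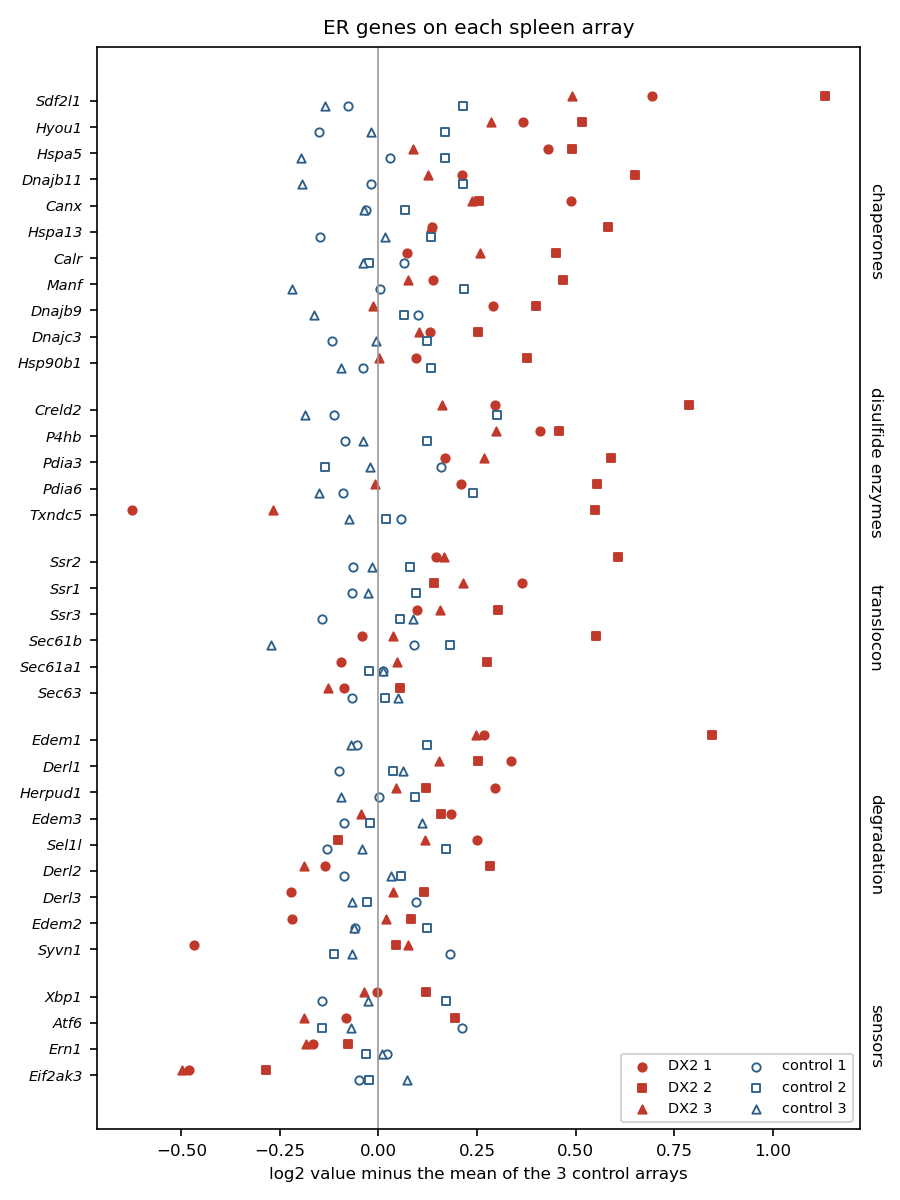
Each row is 1 of the 35 ER genes and each symbol 1 array (red filled, DX2; blue open, control; the shape gives the replicate number), plotted as the log2 value minus the mean of the 3 control arrays for that gene. DX2 2 (squares) is the highest DX2 array for 10 of the 11 chaperones, while Eif2ak3 lies to the left in all 3.

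All 11 chaperones and cochaperones had a higher mean in DX2 spleens, with differences of 0.16 to 0.77 and a median of 0.28. Sdf2l1, a cofactor that keeps ER DnaJ proteins and BiP clients soluble, stood at 7.86, 8.30 and 7.65 in DX2 1, 2 and 3, against 7.09, 7.38 and 7.03 in control 1, 2 and 3. Its 3 DX2 values lay above every control value, with a difference of 0.77 (SE 0.19, 95% interval 0.34 to 1.21), or 1.71-fold, the largest among the ER genes (adjusted p = 0.118, limma). Hyou1, the HSP110-type nucleotide exchange factor of BiP, stood at 8.24, 8.39 and 8.16 in DX2 arrays, against 7.72, 8.04 and 7.85 in control arrays (difference 0.39, SE 0.13, adjusted p = 0.203). Canx, which encodes the membrane lectin calnexin, stood at 11.0, 10.8 and 10.7 in DX2 arrays, against 10.5, 10.6 and 10.5 in control arrays (difference 0.33, SE 0.11, adjusted p = 0.228). The groups did not overlap for either gene.

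Hspa5 encodes BiP, the HSP70 of the ER and the chaperone that holds the sensors inactive. It stood at 8.88, 8.94 and 8.54 in DX2 arrays, against 8.48, 8.62 and 8.25 in control arrays. DX2 3 lay below control 2, so the groups overlapped, and the difference of 0.34 had a 95% interval of -0.021 to 0.69 (adjusted p = 0.340, limma). Calr, the soluble lectin calreticulin, was the remaining chaperone without overlap, at 10.6, 11.0 and 10.8 in DX2 arrays and 10.6, 10.5 and 10.5 in control arrays (difference 0.26), with DX2 1 at 10.58 and control 1 at 10.57. Without DX2 2 the Calr difference was 0.16. The BiP cochaperones Dnajb11 (0.33), Dnajb9 (0.23) and Dnajc3 (0.16), the HSP70 relative Hspa13 (0.28), the secreted ER protein Manf (0.23) and Hsp90b1 (0.16), which encodes the ER HSP90 called GRP94, overlapped between the groups. Against the male control alone the median of the 11 chaperones was 0.39, and all 11 were higher. That comparison rests on 1 array, control 3, which was the lowest control array for 8 of the 11. Without control 3 the median was 0.24. Without DX2 2 the median was 0.16, with all 11 still higher.

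Of the 5 disulfide enzymes counted, 4 were higher in DX2 spleens. The probe set shared by Pdia4 and Mir704, left out of the counts, differed by -0.38, with all DX2 values below every control value. P4hb, the founding protein disulfide isomerase, stood at 9.24, 9.28 and 9.13 in DX2 arrays, against 8.74, 8.95 and 8.79 in control arrays (difference 0.39, SE 0.11, 95% interval 0.13 to 0.65, adjusted p = 0.158). Pdia3, the isomerase that works with calnexin and calreticulin, stood at 10.4, 10.8 and 10.5 in DX2 arrays, against 10.4, 10.1 and 10.2 in control arrays (difference 0.34, SE 0.15, adjusted p = 0.313, limma). Neither gene overlapped between the groups, although for Pdia3 DX2 1 (10.42) and control 1 (10.41) were almost equal. Creld2, a secreted ER protein with isomerase activity, stood at 8.91, 9.40 and 8.78 in DX2 arrays, against 8.50, 8.92 and 8.43 in control arrays. Control 2 lay above DX2 1 and DX2 3, and the difference of 0.41 had an SE of 0.20. Pdia6, an isomerase that also acts on the sensors, differed by 0.25 with overlap. The median of the 5 enzymes was 0.34, with 0.40 against the male control alone and 0.32 without that control. Without DX2 2 the median was 0.22, and Pdia3 and Creld2 differed by 0.22 and 0.23.

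Txndc5, a thioredoxin-domain isomerase high in plasma cells, had the widest spread in DX2 spleens. It stood at 8.72, 9.90 and 9.08 in DX2 1, 2 and 3, against 9.41, 9.37 and 9.27 in control 1, 2 and 3. DX2 2 was above every control array and the other DX2 arrays below every one, so that the SD was 0.60 in DX2 and 0.067 in control spleens (n = 3 each) and the difference of -0.11 had a 95% interval of -0.75 to 0.52. Without DX2 2 the difference was -0.45, and without DX2 1 it was 0.14.

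In the translocon group, 5 of 6 genes were higher by mean, against 51.6% of all genes. In 3 of the 6 all DX2 values lay above all control values, as in 10.7% of all genes. These were Ssr1, Ssr2 and Ssr3, subunits of the translocon-associated protein complex (TRAP), which helps chains enter the channel. No gene of the group had an unadjusted p under 0.05 (limma). Ssr1 stood at 8.65, 8.42 and 8.50 in DX2 arrays, against 8.21, 8.38 and 8.25 in control arrays (difference 0.24, SE 0.11, adjusted p = 0.351, limma). Its second, dimmer probe set overlapped between the groups, with a difference of 0.13. It stood at 5.27, 5.11 and 4.86 in DX2 arrays, against 4.55, 5.25 and 5.04 in control arrays. Ssr2 stood at 9.67, 10.1 and 9.69 in DX2 arrays, against 9.46, 9.60 and 9.50 in control arrays (difference 0.31, SE 0.15, adjusted p = 0.373). Ssr3 stood at 8.34, 8.54 and 8.40 in DX2 arrays, against 8.10, 8.30 and 8.33 in control arrays (difference 0.19, SE 0.12, adjusted p = 0.492). The other TRAP subunit, Ssr4, from a further list, stood at 8.62, 8.99 and 8.78 in DX2 arrays, against 8.40, 8.93 and 8.48 in control arrays, and overlapped. The channel subunits Sec61a1 and Sec61b differed by 0.076 and 0.18, and Sec63, which couples the channel to BiP, by -0.054 (0.038 with centred arrays), all with overlap. The Sec61b probe set was dim, with a mean of 5.03 over the 6 arrays, against an all-gene median level of 5.45. The median of the 6 genes was 0.18, the same against the male control alone, and 0.062 without DX2 2. Without DX2 2 the Ssr2 difference was 0.16, without control 1 the Ssr3 difference was 0.11, and without DX2 2 the Sec61a1 and Sec61b differences were -0.024 and -0.0022.

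Degradation genes were divided, 5 higher and 4 lower of 9, with a median of 0.087. The median was 0.043 against the male control alone, 0.025 without control 1 and 0.024 with array weights. Without DX2 1 all 9 were higher, with a median of 0.06, and with centred arrays 8 were, with a median of 0.18. Edem1, a mannosidase-like lectin that marks misfolded glycoproteins, stood at 9.30, 9.88 and 9.28 in DX2 arrays, against 8.98, 9.15 and 8.96 in control arrays. The groups did not overlap, and the difference was 0.45 (SE 0.18, 95% interval 0.039 to 0.87, adjusted p = 0.272), and 0.26 without DX2 2. Its second probe set also had 3 DX2 values of 5.45, 5.69 and 5.31, against 5.25, 5.32 and 5.02 in control arrays, with DX2 3 just under control 2. Derl1, a membrane protein of the dislocation machinery, stood at 9.55, 9.46 and 9.36 in DX2 arrays, against 9.11, 9.25 and 9.27 in control arrays (difference 0.25, SE 0.11, adjusted p = 0.325, limma), without overlap.

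Herpud1, which organises the ubiquitin ligase complex and is a target of the unfolded protein response, stood at 9.95, 9.77 and 9.69 in DX2 arrays, against 9.65, 9.74 and 9.55 in control arrays, with a difference of 0.15. DX2 3 lay below control 2. The other members of the HRD1 complex, its ligase Syvn1 (-0.12) and its partner Sel1l (0.087), and the EDEM relatives Edem2 (-0.039, or 0.053 with centred arrays) and Edem3 (0.10) all overlapped between the groups. Derl3, the derlin that is high in plasma cells, stood at 7.61, 7.94 and 7.86 in DX2 arrays, against 7.92, 7.80 and 7.76 in control arrays, a difference of -0.023 (95% interval -0.32 to 0.27) that was 0.068 with centred arrays. Derl2 differed by -0.014, and its second probe set by -0.016, and centred arrays put it at 0.077.

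The sensors were the group with a negative median (-0.085, and 0.0069 with centred arrays), and no sensor was higher in all 3 DX2 arrays. The median was -0.054 against the male control alone and -0.034 without DX2 3. Without DX2 2 all 4 were lower, with a median of -0.16, and without control 2 the median was -0.13. Eif2ak3 encodes PERK, the kinase that slows translation by phosphorylating eIF2 alpha. It stood at 7.13, 7.33 and 7.12 in DX2 arrays, against 7.56, 7.59 and 7.69 in control arrays, all 3 DX2 values below every control value. The difference was -0.42 (SE 0.11, 95% interval -0.68 to -0.16, adjusted p = 0.138, limma), the lowest of the 35 ER genes, and -0.49 against the male control alone. Ern1, which encodes IRE1 alpha, stood at 7.42, 7.51 and 7.40 in DX2 arrays, against 7.61, 7.56 and 7.60 in control arrays, again without overlap but with a small difference of -0.14 (SE 0.10, adjusted p = 0.528).

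Xbp1 and Atf6, the transcription factors of the response, were close to their control levels. Xbp1 stood at 8.94, 9.07 and 8.91 in DX2 arrays, against 8.80, 9.12 and 8.92 in control arrays, a difference of 0.027 with a 95% interval of -0.25 to 0.31. Atf6 stood at 8.94, 9.21 and 8.83 in DX2 arrays, against 9.23, 8.88 and 8.95 in control arrays, a difference of -0.026 (95% interval -0.37 to 0.32) that was 0.065 with centred arrays. Both genes overlapped between the groups. The values are 1 summary per gene, so spliced and unspliced Xbp1 RNA, and cleaved and full-length ATF6 protein, were not measured.

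**Figure D2:**
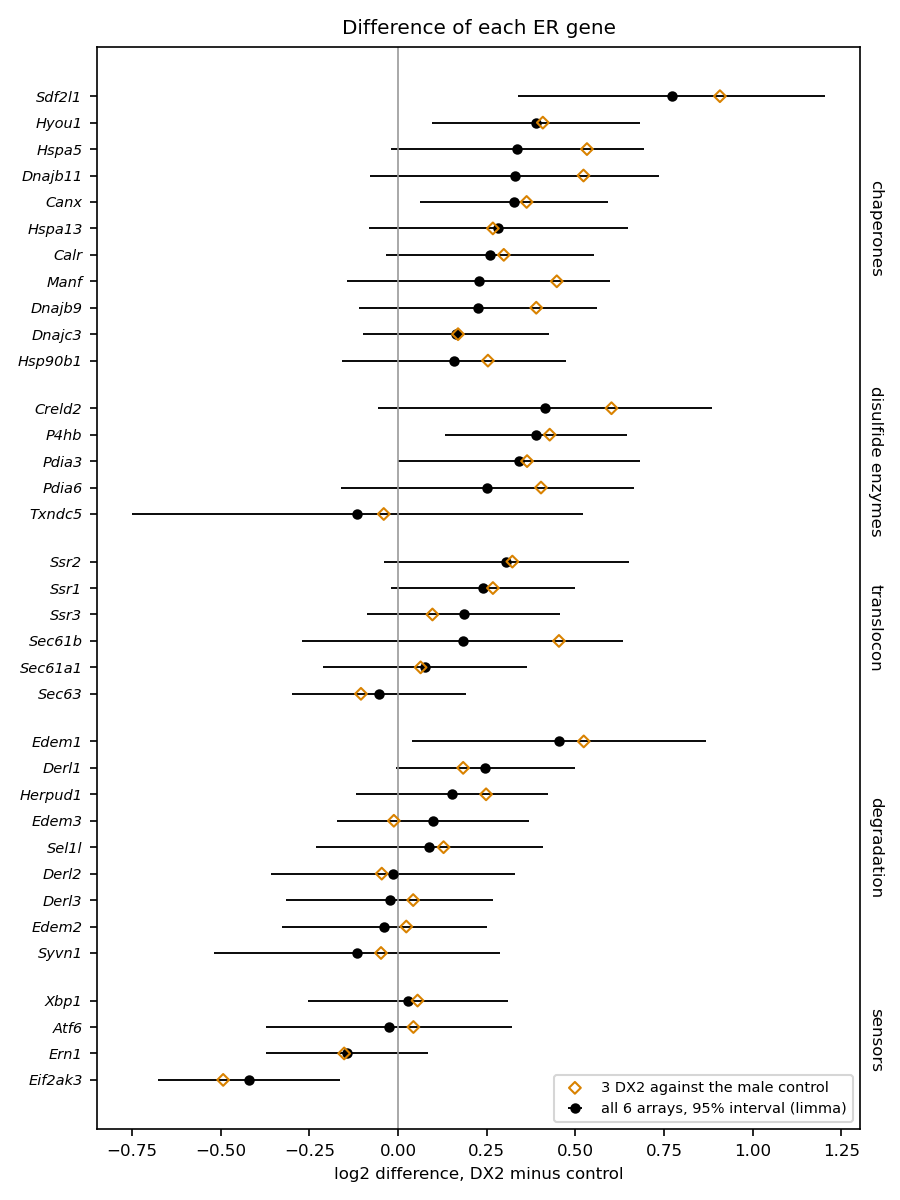
Each row is 1 ER gene, with the log2 difference DX2 minus control over all 6 arrays as a black point and its 95% interval from limma as a line, and the difference between the 3 DX2 arrays and the male control as an open diamond. Of the 35 intervals, 6 lie above 0 and 1, that of Eif2ak3, lies below it, before any adjustment for the number of genes.

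The ER genes also varied together between spleens of the same genotype, as did other lists. DX2 2 was the highest of the 3 DX2 arrays for 28 of the 35 ER genes (80.0%), against 40.2% of all genes. DX2 3 was the lowest for 23 of the 35, against 6326 of all 22180 genes. Control 2 was the highest of the 3 control arrays for 21 of the 35 (60.0%), against 33.8% of all genes. Both held for 17 ER genes, among them Hspa5, Hsp90b1, Hyou1, Sdf2l1, Dnajb11, Creld2, Pdia6 and Edem1, and the share over all genes was not counted. DX2 2 was also the highest DX2 array for 9 of 9 T cell genes and 15 of 16 retrieval receptor and COPII coat genes. It was the lowest DX2 array for 10 of 10 erythroid and 13 of 13 proliferation genes. The mean level of the 11 chaperones was 8.74, 8.97 and 8.63 in DX2 1, 2 and 3, against 8.43, 8.60 and 8.37 in control 1, 2 and 3, so control 2 came close to DX2 3. The 5 disulfide enzymes were at 9.29, 9.78 and 9.29 in DX2 arrays, against 9.18, 9.31 and 9.10 in control arrays, where control 2 was slightly above DX2 1 and DX2 3.

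Plasma cell genes followed part of the same order. The 13 measured plasma cell genes outside the ER set had a mean level of 7.31, 7.90 and 7.58 in DX2 1, 2 and 3, against 7.83, 7.96 and 7.90 in control 1, 2 and 3. Of the 13, 12 were lower in DX2 spleens (median -0.25, 0 called), and Prdm1 was higher (0.18). The differences were largest for Tnfrsf13b (-0.75), Pou2af1 (-0.70) and Irf4 (-0.68), and smaller for others such as Sdc1 (-0.15) and Ell2 (-0.11). DX2 2 was the highest DX2 array for 9 of the 13. Mzb1, an ER protein of B and plasma cells, stood at 7.99, 9.30 and 8.54 in DX2 arrays, against 8.59, 9.17 and 8.91 in control arrays. Jchain, the joining chain of secreted antibody, stood at 11.6, 11.6 and 10.9 in DX2 arrays, against 11.4, 11.5 and 11.4 in control arrays. The part of plasma cells in the level of the ER genes was not tested.

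**Figure D3:**
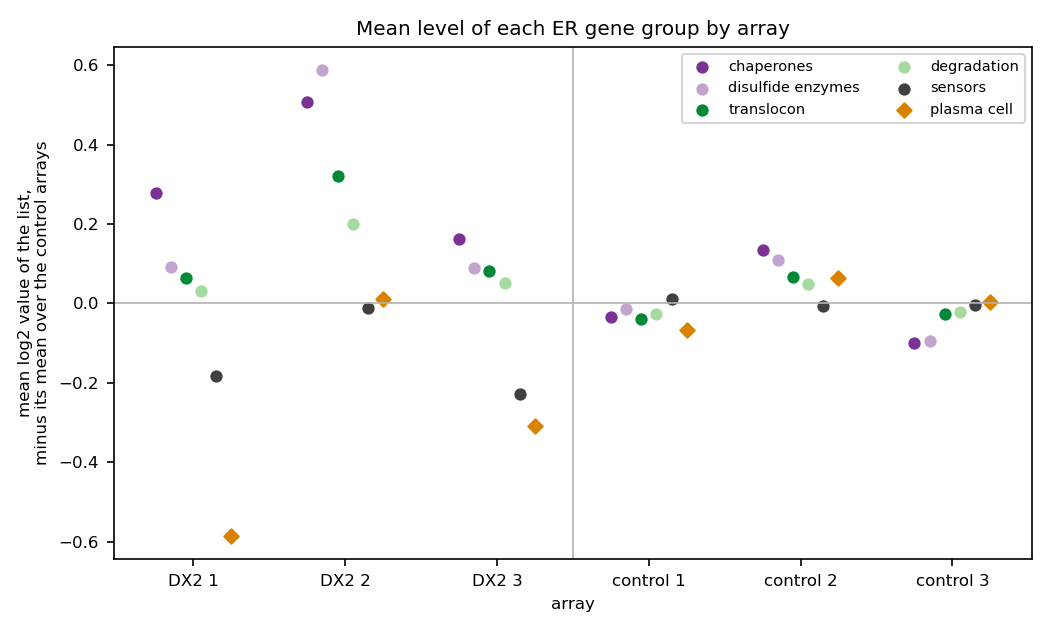
For each of the 6 arrays, the mean log2 value of each ER gene group (circles) and of the plasma cell genes (diamonds) is shown minus its mean over the 3 control arrays. Chaperones and disulfide enzymes are highest in DX2 2, and plasma cell genes lie below their control mean in DX2 1 and DX2 3 and close to it in DX2 2.

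Other genes of the secretory pathway, taken from 7 further lists, leaned the same way. Of 102 measured genes, 72 were higher and 30 lower, with a median of 0.12, also against the male control alone, and 0 called at an adjusted p of 0.05 (limma, against 0.316% of all genes). At an unadjusted p under 0.05 there were 15 higher (14.7%, against 8.13% of all genes) and 3 lower (2.94%, against 7.82%). All DX2 values lay above all control values for 23 (22.55%, against 10.7% of all genes). They lay below them for 6 (5.88%, against 11.2%). The list medians ran from 0.042 for redox enzymes and proline isomerases to 0.18 for the effectors of translation attenuation, all under those of the chaperones and disulfide enzymes. Without DX2 2 the median was -0.014 for the redox enzymes and proline isomerases and -0.0039 for the retrieval receptors and COPII coat genes. For comparison, all 12 cytosolic heat shock genes were higher, with a median of 0.60 and 0 called, and a mean level of 8.17, 7.83 and 7.64 in DX2 arrays against 7.16, 7.33 and 7.03 in control arrays. The mean of the heat shock genes was highest in DX2 1, and that of the ER chaperones in DX2 2.

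**Figure D4:**
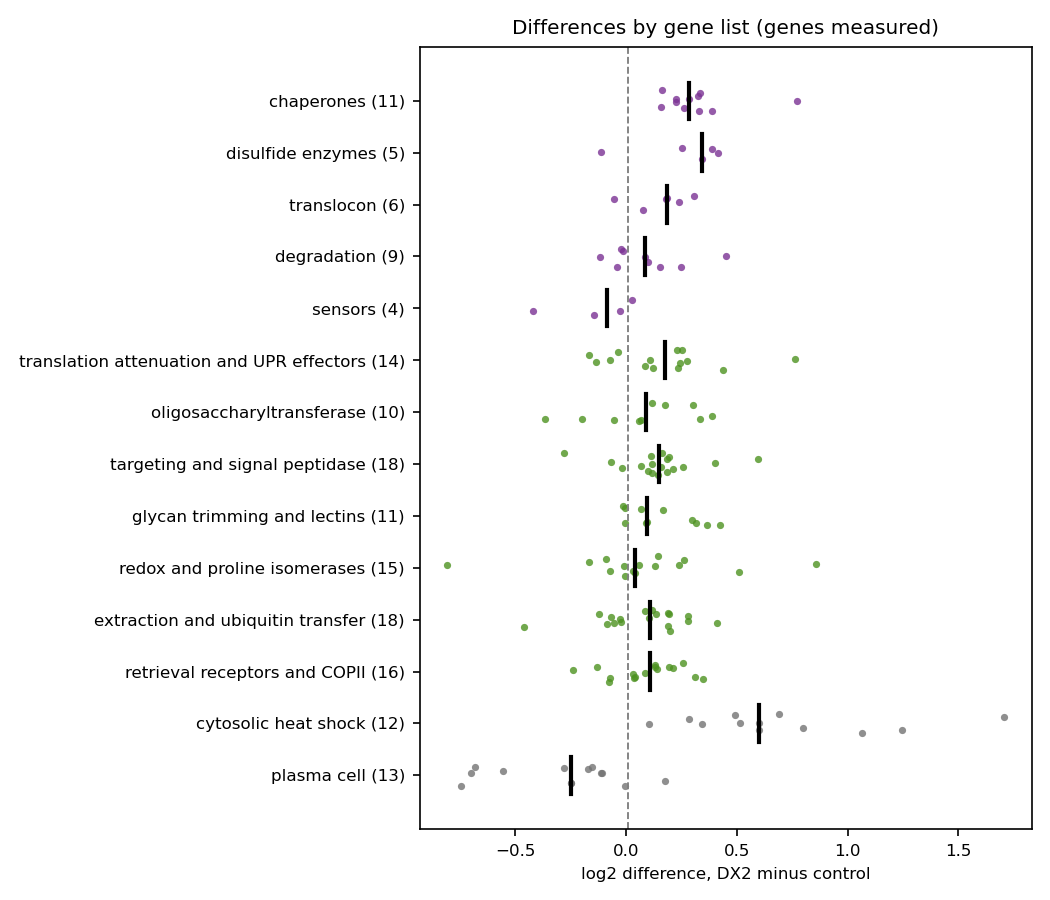
Each point is 1 gene, placed by its log2 difference DX2 minus control, in the 5 ER groups (purple), 7 further secretory pathway lists (green) and 2 lists for comparison (grey), with the number of measured genes in brackets. Black bars are list medians and the dashed line is the median of all genes (0.0085). Chaperones and cytosolic heat shock genes lie wholly to the right of 0.

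Among these, the enzymes that recharge disulfide isomerases and fold proline bonds held the extremes. Ero1b, an oxidase that passes disulfide bonds to the isomerases, stood at 7.44, 7.86 and 7.79 in DX2 arrays, against 8.43, 8.50 and 8.58 in control arrays (difference -0.81, SE 0.14, adjusted p = 0.071, limma). Its paralog Ero1a differed by 0.26 with overlap. Fkbp2, an ER proline isomerase, stood at 8.25, 8.26 and 8.32 in DX2 arrays, against 7.02, 7.62 and 7.61 in control arrays (difference 0.86, SE 0.17, adjusted p = 0.093).

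In the glycosylation and targeting lists, the oligosaccharyltransferase subunits Rpn1 and Rpn2, called ribophorins, differed by 0.39 and 0.33. Of the 10 genes of that enzyme 7 were higher, against 51.6% of all genes. For 4 of them the groups did not overlap, as for 10.7% of all genes. Krtcap2 (-0.37) and Dad1 (-0.20) of the same enzyme were lower, also without overlap, as were 11.2% of all genes. Sec61g, the third subunit of the channel, differed by 0.60 and Srp19, of the signal recognition particle, by 0.40, with 15 of 18 genes higher. Lman1, a cargo receptor for glycoproteins, differed by 0.42 and Mogs, the first glucosidase of glycan trimming, by 0.32, with 8 of 11 higher. The groups did not overlap for Rpn1, Rpn2, Sec61g, Srp19, Lman1 and Mogs. These 6 genes were named for the smallest p in their lists, so the lack of overlap follows in part from that choice. Their adjusted p lay between 0.157 and 0.227 (limma).

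Downstream of the sensors, Ppp1r15b, a subunit of the phosphatase that reverses the action of PERK, stood at 8.14, 8.05 and 8.28 in DX2 arrays, against 7.59, 7.85 and 7.72 in control arrays (difference 0.44, SE 0.12, adjusted p = 0.149, limma). Bloc1s1, whose messenger RNA IRE1 cuts, differed by 0.23, and 10 of the 14 genes of that list were higher. Nploc4, an adaptor of the p97 extraction motor, differed by 0.41 and Ufl1, the UFM1 ligase of the ER, by -0.46, with 11 of 18 higher. Tmed2 and Surf4, cargo receptors between ER and Golgi, differed by 0.35 and 0.31, with 12 of 16 higher. By mean, 51.6% of all genes were higher. The groups did not overlap for any of the 6 genes named here. They were named for the smallest p in their lists, so the lack of overlap follows in part from that choice.

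The ER genes with and without the ERSE element overlapped in their differences. The 9 genes with it had a median difference of 0.25 and a range of -0.12 to 0.41, with 7 higher. The 19 measured genes with a window and no match had a median of 0.15 and a range of -0.42 to 0.77, with 13 higher. The 2 genes of the 9 that were not higher were Derl3 and Syvn1, both of the degradation group, and Sdf2l1, with the largest difference, was among those without a match. Outside the ER set, the 20 other measured genes with the element had a median of -0.055, with 8 higher, and Ero1b was the lowest of them. These 20 include Alg12, which holds the same match as Creld2, and members of the Xlr3 and Esp families. They were not matched to the ER genes for expression level, so the medians are not a test of the element.

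**Figure D5:**
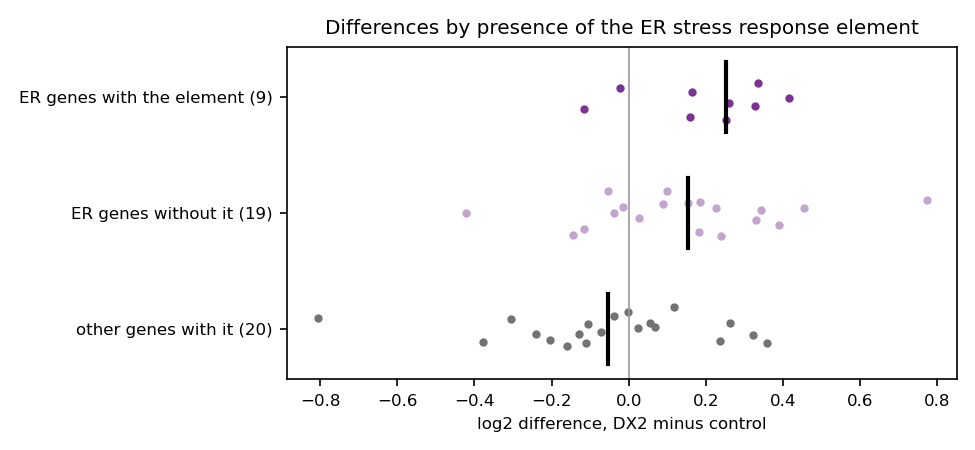
Log2 differences DX2 minus control are shown for the 9 ER genes whose promoter window holds the ERSE element and the 19 whose window does not. The 20 other measured genes that hold it are shown beside them and were not matched to them for expression level. Each point is 1 gene and black bars are medians (0.25, 0.15 and -0.055).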

How the data were processed

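Expression was measured in 6 spleens, 3 DX2 and 3 control, with 1 array each. The authors deposited 1 table of values on what its range (0.771 to 13.3) shows to be a log2 scale, made with RMA per the submitters' processing notes; the sources used here do not give its version. RMA subtracts background, puts the probe values of the arrays on 1 distribution and summarises probes, and it tends to shrink large differences. The deposited medians over all probe sets still differed. They were 5.12, 5.07 and 5.06 in DX2 1, 2 and 3, and 5.20, 5.17 and 5.16 in control 1, 2 and 3.

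Of 41345 probe sets, 23521 had 1 gene symbol in the platform annotation, 1814 several and 16010 none. Groups came from the sample titles, which call the samples biological replicates. Differences were tested with limma 3.58.1 in R 4.3.3 (lmFit, eBayes, no covariate, no filter on dim genes) over all 22180 genes with Benjamini-Hochberg adjustment and a threshold of 0.05, and intervals are 95%. The number of arrays limits the precision, with a median standard error of 0.14. The fit and the motif search were tested on simulated data.

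The ER genes, the lists and the alternatives were chosen with earlier results of these data known. Named with every value were the 3 genes of smallest unadjusted p per role group, with Xbp1, Hspa5 and Derl3; the 2 of smallest p in each further list were named. Txndc5, Calr, Atf6, Ssr4, Ero1a, Krtcap2, Dad1, Mzb1, Jchain, Prdm1, Tnfrsf13b, Pou2af1, Irf4, Sdc1, Ell2, Alb, Alg12 and Catsper2 were picked after their values were seen. Alternatives were a replicate block, each array left out, a sex term, male spleens alone, a filter on dim genes, other variance priors, array weights, 2 normalizations, other probe set rules and another threshold.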

Additional observations from a re-analysis of the deposited data

How the results depend on the processing

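No ER gene passed limma's adjusted p of 0.05 in any of the 18 other settings, or 0.1 where that was the threshold, and the smallest adjusted p was 0.0558 (Eif2ak3 with array weights). The median difference was 0.13 to 0.25 with 1 array left out, lowest without DX2 2, and 0.19 with the replicate block. It was 0.25 with a sex term or in male spleens alone, and 0.13 with array weights. Arrays centred on their median put it at 0.28 and the all-gene median at 0.10, against 0.0085. A second quantile normalization put the ER median at 0.21, with the all-gene median at 0.066 and 61.8% of all genes higher. Same-numbered arrays did not deviate together across genes (r = -0.32, -0.14 and 0.068 for numbers 1, 2 and 3), DX2 3 alone of the DX2 arrays correlated best with its own number, and with the block 1 of 22180 genes was called, against 70 without it.

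Of the 35 ER genes, 24 kept their direction in all settings, among them every chaperone. With 1 array left out, differences ranged from -0.14 to 0.079 for Atf6, -0.045 to 0.11 for Xbp1, -0.45 to 0.14 for Txndc5, -0.024 to 0.16 for Sec61a1, -0.0022 to 0.29 for Sec61b, -0.21 to 0.060 for Syvn1, -0.10 to 0.050 for Edem2, -0.16 to 0.073 for Derl2 and -0.092 to 0.076 for Derl3. With a sex term, and likewise in male spleens alone, Atf6 was at 0.043, Edem2 at 0.023, Edem3 at -0.012 and Derl3 at 0.043. With array weights Xbp1 was at -0.0012 and Derl3 at 0.0032. A second quantile normalization put Derl2 at 0.038, and centred arrays put Atf6 at 0.065, Sec63 at 0.038, Edem2 at 0.053, Derl2 at 0.077 and Derl3 at 0.068. These genes lay within 1 standard error of 0 in the report, and the cause of the sign changes was not tested. The male spleens hold 1 control array, which is assumed to vary like the DX2 arrays. The number of genes called over the whole table was 70, and 0 in male spleens alone, 1 without DX2 3, control 1 or control 2, 2 with a sex term or centred arrays, 5 without control 3, 8 without DX2 1, 125 with a filter on dim genes, 370 without DX2 2, 394 at an adjusted p under 0.1 and 547 with array weights.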

Other observations

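Some ER genes share their promoter window with a gene read in the opposite direction, and in the pairs described here the differences had opposite signs. Alg12, a mannosyltransferase of N-glycan assembly, has a window that overlaps that of Creld2 by 173 bases and holds the same ERSE match. Alg12 stood at 6.58, 7.26 and 6.87 in DX2 arrays, against 7.36, 6.79 and 6.94 in control arrays (difference -0.13, SE 0.21, adjusted p = 0.820, limma), while Creld2 differed by 0.41. Catsper2, which encodes a sperm calcium channel subunit, overlaps the window of Pdia3 by 209 bases and stood at 4.66, 4.90 and 4.64 in DX2 arrays, against 5.12, 4.93 and 4.91 in control arrays (difference -0.25, SE 0.12, adjusted p = 0.368), while Pdia3 differed by 0.34. The Catsper2 values lay below the all-gene median level of 5.45. The difference between the genes of a pair was not tested. Both neighbours were picked after their values were seen.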
